A study of Mus musculus with 4 samples.

Results

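The 7 genes described here belong to the p53 pathway. They are the transcription factors *Trp53* and *Trp63*, the inhibitors *Mdm2* and *Mdm4*, and the targets *Cdkn1a*, *Bbc3* and *Pmaip1*. All 7 were found among the 21957 genes of the deposited expression table, each as 1 entry. Mouse oocytes were measured by RNA-seq in 4 libraries, 1 for each condition, to ask how tubastatin A (TubA), an inhibitor of the mainly cytoplasmic deacetylase HDAC6, alters oocyte maturation. GV oocytes, which are arrested in meiotic prophase with an intact germinal vesicle (GV), were taken at 0 h. MII oocytes were cultured for 12 h without TubA and kept only if they had extruded a polar body, which marks arrival at the second metaphase. TubA-10 and TubA-20 oocytes were cultured for 12 h with TubA at 10 and 20 μM according to the sample titles. Their treatment fields instead read 20 μM for the first and 11 μM for the second of these samples, and the titles are followed here. All oocytes came from B6D2F1 (C57BL/6 x DBA) females of 6 to 8 weeks primed with pregnant mare serum gonadotropin, were freed of cumulus cells, and were pooled at 100 per library. TubA was dissolved in DMSO, while the MII sample, titled as an embryo, is labelled non-treated. The labels give no meiotic stage for the TubA oocytes, so stage and treatment cannot be told apart. With 1 library per condition no test was possible, and a difference is given as its size beside the share of all genes that differed as much.

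The p53 protein (gene *Trp53*) is a transcription factor that halts the cell cycle or starts apoptosis after DNA damage. MDM2 is a ubiquitin ligase that marks p53 for destruction and is itself a target of p53, so the pair forms a feedback loop. MDM4, also called MDMX, binds p53 as well and masks its activation domain. In the oocytes of resting follicles the related factor p63 (*Trp63*), in its TAp63α form, is the main guardian against DNA damage, and it kills damaged oocytes through PUMA (*Bbc3*) and NOXA (*Pmaip1*), which are BH3-only proteins of the Bcl2 family. p21 (*Cdkn1a*) inhibits cyclin-dependent kinases. The growing GV oocyte stores mRNA. After meiotic resumption transcription is silent, and mRNA levels then follow decay and changes in poly(A) tail length. Because the libraries were selected with oligo(dT), less mRNA and a shorter tail cannot be told apart.

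Levels are FPKM (fragments per kilobase of transcript, scaled to the mapped fragments of the library), which already account for transcript length, so they can be compared between genes. Differences are log2 ratios of FPKM + 1, which understate differences of low genes, and 2-fold means a log2 difference of at least 1. The oocyte identity of the libraries was checked with 10 oocyte markers, all above 1 FPKM in every library, with sums of 10723 to 14316 FPKM. Of 10 cumulus and granulosa markers, *Foxl2* was listed at 0 in every library, and the list summed to 8.17 to 16.2 FPKM. Most of that sum was *Inha* in GV (7.50 FPKM, against 0.239 to 0.314 in the other libraries) and *Cyp19a1* in every library (6.14 to 10.3 FPKM). Of 8 blood markers the 4 globin genes were at 0 in every library, and the sums were 1.64 to 2.30 FPKM. The median gene with at least 1 FPKM in every library (9193 genes) lay 0.13 (MII), 0.14 (TubA-10) and 0.19 (TubA-20) above GV on the log2 scale. Each difference below was therefore also taken under 4 scalings of the libraries, and the text says where a scaling takes a 2-fold difference below that threshold. FPKM and the scalings are relative within a library and do not give the amount of mRNA per oocyte. A higher value of a gene therefore cannot be told apart from lower values of other mRNAs.

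The promoter regions of *Cdkn1a*, *Mdm2* and *Trp53* are shown because p53 binds DNA through a 10-base consensus half-site, usually as a pair of them. RefSeq start-site regions on GRCm38 (250 bases before to 50 bases after the start) were at hand for 5 of the 7 genes, in 9 entries, and were searched for a match to this consensus, which reads the same on both strands. A match was found in 8.36% of all 32851 such regions. The upstream region of *Cdkn1a* had 2 matches, and the regions of *Mdm2* and *Trp53* had 1 each. The capitals below mark the matches.
*Cdkn1a* (chr17:29090729-29091028, plus strand): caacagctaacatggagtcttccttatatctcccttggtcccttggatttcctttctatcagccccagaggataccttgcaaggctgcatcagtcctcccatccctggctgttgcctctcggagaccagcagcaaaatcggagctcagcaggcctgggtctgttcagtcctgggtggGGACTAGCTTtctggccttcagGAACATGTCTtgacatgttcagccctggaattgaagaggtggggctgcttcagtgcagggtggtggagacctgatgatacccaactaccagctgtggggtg
*Mdm2* (chr10:117710709-117711008, minus strand): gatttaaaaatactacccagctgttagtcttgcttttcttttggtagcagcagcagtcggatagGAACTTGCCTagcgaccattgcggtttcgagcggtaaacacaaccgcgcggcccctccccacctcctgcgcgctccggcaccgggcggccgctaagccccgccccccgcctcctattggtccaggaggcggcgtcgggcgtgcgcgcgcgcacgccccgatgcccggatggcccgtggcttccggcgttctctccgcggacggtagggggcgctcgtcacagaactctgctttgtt
*Trp53* (chr11:69580109-69580408, plus strand): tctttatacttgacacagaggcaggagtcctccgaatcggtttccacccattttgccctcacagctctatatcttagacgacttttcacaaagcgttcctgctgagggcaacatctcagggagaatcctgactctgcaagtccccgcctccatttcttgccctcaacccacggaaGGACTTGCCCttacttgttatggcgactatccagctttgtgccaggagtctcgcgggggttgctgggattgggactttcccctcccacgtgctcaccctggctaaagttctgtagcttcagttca

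The matches in *Cdkn1a* began 73 and 51 bases before its upstream start site, which is 2863 and 2841 bases before the downstream start site of the same gene. The match in *Mdm2* began 186 bases and that in *Trp53* 75 bases before the start site. Only 1 *Mdm2* region was at hand, and sequence more than 50 bases after its start site was not searched. The other *Cdkn1a* region, both *Mdm4* regions and the 3 *Bbc3* regions held no match. Of the 3 *Bbc3* regions, 1 held the start of a GENCODE transcript of the gene, and the other 2 are start sites of RefSeq alone. These are matches of letters only, and binding was not measured. Other promoter motifs were searched in the same regions on both strands. CCAAT, present in 37.4% of all regions, occurred in those of *Trp53* and *Mdm2* and in 1 of *Bbc3*. GGGCGG, present in 35.7%, occurred 2 times in the *Mdm2* region, 2 times in the downstream *Cdkn1a* region and 4 to 7 times in those of *Bbc3*. TATAAA (13.6% of all regions) was found for *Trp53*, and CACGTG (7.15%) for *Trp53* and 1 *Bbc3* region. Neither *Mdm4* region held any of these motifs.

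*Trp53* (ENSMUSG00000059552.13, chromosome 11, 69580359 to 69591873, plus strand) was moderately expressed and was highest after culture with the higher TubA dose. Its FPKM was 29.0 in GV, 37.7 in TubA-10, 49.0 in MII and 68.5 in TubA-20. In TubA-20 it was 2-fold higher than in GV, with a log2 difference of 1.21 and a range of 1.02 to 1.28 over the scalings. MII was 0.74 and TubA-10 0.37 above GV on the same scale. Against MII, TubA-10 was lower (-0.37) and TubA-20 higher (0.47), neither by 2-fold. Of all genes, *Trp53* ranked 3112th in GV and 1645th in TubA-20 by FPKM.

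*Trp63* (ENSMUSG00000022510.14, chromosome 16, 25683763 to 25892102, plus strand) was low and varied least of the 5 genes that reached 5 FPKM in a library. Its FPKM was 5.84 in GV, 7.65 in TubA-10, 6.45 in MII and 8.36 in TubA-20. On the log2 scale TubA-10 was 0.34, MII 0.12 and TubA-20 0.45 above GV. Both TubA libraries were above MII, by 0.22 and 0.33, unlike the pattern of *Trp53*. TubA-20 was 0.11 above TubA-10, and this turned to -0.06 when the libraries were scaled to equal *Gapdh*. The annotated *Trp63* locus also holds a processed pseudogene, *Gm27005*, on the same strand, and the gene-level value does not separate the TAp63 and ΔNp63 isoforms. The ratio of *Trp53* to *Trp63* in FPKM was 4.97 in GV, 4.92 in TubA-10, 7.60 in MII and 8.19 in TubA-20.

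**Figure D1:**
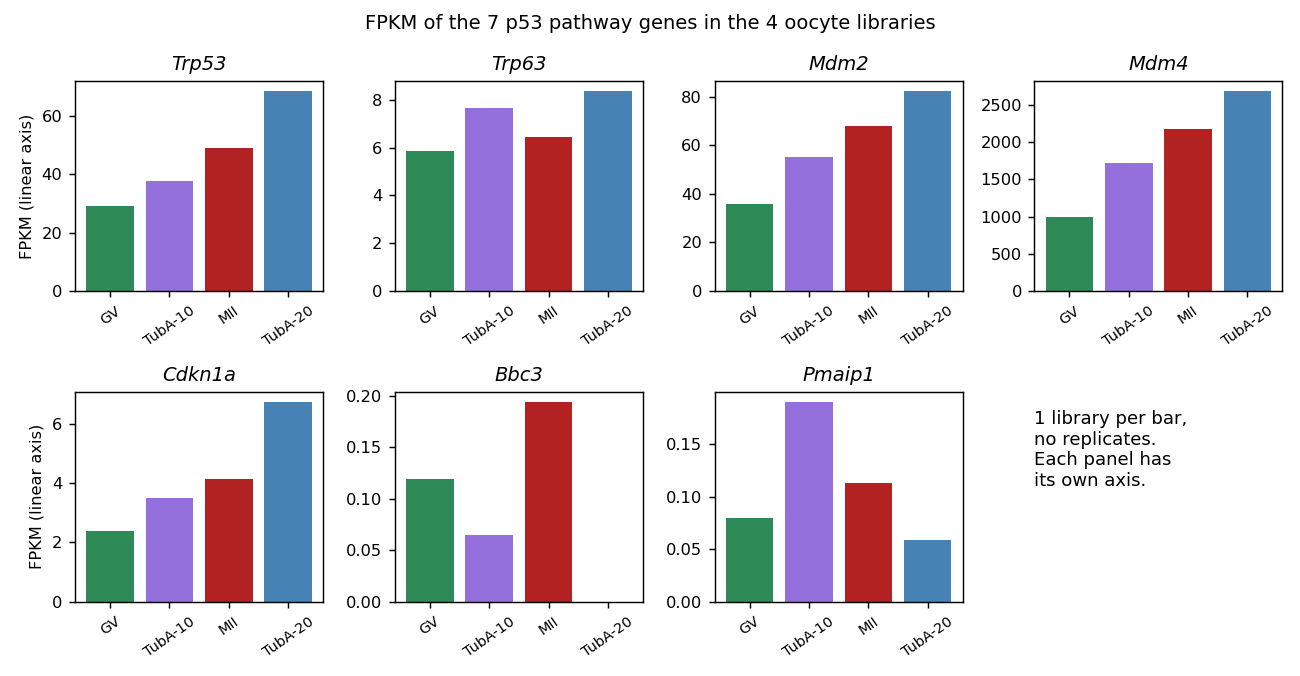
FPKM of the 7 genes in the 4 libraries, with 1 bar per library, a linear axis that starts at 0 in each panel, and no error bars because each condition is 1 library. *Trp53*, *Mdm2*, *Mdm4* and *Cdkn1a* step up from GV to TubA-10, MII and TubA-20, *Trp63* spans 5.84 to 8.36, and *Bbc3* and *Pmaip1* stay below 0.2 FPKM.

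The inhibitors were expressed at very different levels. *Mdm4* (ENSMUSG00000054387.13, chromosome 1, 132959484 to 133030561, minus strand) was among the most abundant mRNAs of the oocyte. Its FPKM was 992 in GV, 1722 in TubA-10, 2172 in MII and 2688 in TubA-20. Of 21957 genes it ranked 75th in GV, 29th in TubA-10, and 20th in both MII and TubA-20. It was 2-fold higher than GV in MII (log2 1.13, past 2-fold and up to 1.36 under the scalings) and in TubA-20 (1.44, range 1.25 to 1.51). The TubA-10 library was 0.79 above GV and passed 2-fold under the *Gapdh* scaling alone (1.06). A processed pseudogene, *Gm29257*, lies in the locus on the opposite strand, and the libraries were strand-specific.

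*Mdm2* (ENSMUSG00000020184.14, chromosome 10, 117688875 to 117710758, minus strand) had 36.0 FPKM in GV, 55.3 in TubA-10, 68.1 in MII and 82.4 in TubA-20. Its log2 difference from GV was 1.17 for TubA-20, 0.90 for MII and 0.61 for TubA-10. The TubA-20 difference was just past 2-fold and became 0.99 when the median difference of expressed genes was set to 0. The TubA-10 library lay below MII (-0.30) and the TubA-20 library above it (0.27). *Mdm4* thus had 27.6 times the FPKM of *Mdm2* in GV, 31.1 times in TubA-10, 31.9 times in MII and 32.6 times in TubA-20, a ratio that varied 1.18-fold. The ratio of *Mdm2* to *Trp53* lay between 1.20 in TubA-20 and 1.47 in TubA-10, and that of *Mdm4* to *Trp53* between 34.2 in GV and 45.7 in TubA-10. The inhibitors and *Trp53* differed less from each other across libraries than each differed from GV to TubA-20.

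Among the targets, *Cdkn1a* (ENSMUSG00000023067.13, chromosome 17, 29090976 to 29100727, plus strand) was low but detected in every library. Its FPKM was 2.39 in GV, 3.49 in TubA-10, 4.13 in MII and 6.75 in TubA-20. TubA-20 was 2-fold above GV (log2 1.19, range 1.03 to 1.23), while MII was 0.60 and TubA-10 0.40 above it. *Cdkn1a* had the largest difference of the 7 genes between TubA-20 and MII (0.59, a ratio of 1.63), which did not reach 2-fold. *Trp53* had between 10.1 times (TubA-20) and 12.1 times (GV) the FPKM of *Cdkn1a*.

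The p63 effectors were at the edge of detection. *Bbc3* (ENSMUSG00000002083.13, chromosome 7, 16308393 to 16318205, plus strand) had 0.119 FPKM in GV, 0.065 in TubA-10 and 0.194 in MII, and was listed at 0 in TubA-20. *Pmaip1* (ENSMUSG00000024521.7) had 0.079 FPKM in GV, 0.190 in TubA-10, 0.112 in MII and 0.059 in TubA-20. A rough estimate from the smallest FPKM steps puts these values at no more than 7.52 fragments of *Bbc3* and 12 fragments of *Pmaip1* in any library, so neither gene allowed a comparison between conditions at this depth. Their log2 differences on the FPKM + 1 scale lay between -0.26 and 0.14. The fragments behind the other 5 genes were estimated at 73.4 or more in every library.

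**Figure D2:**
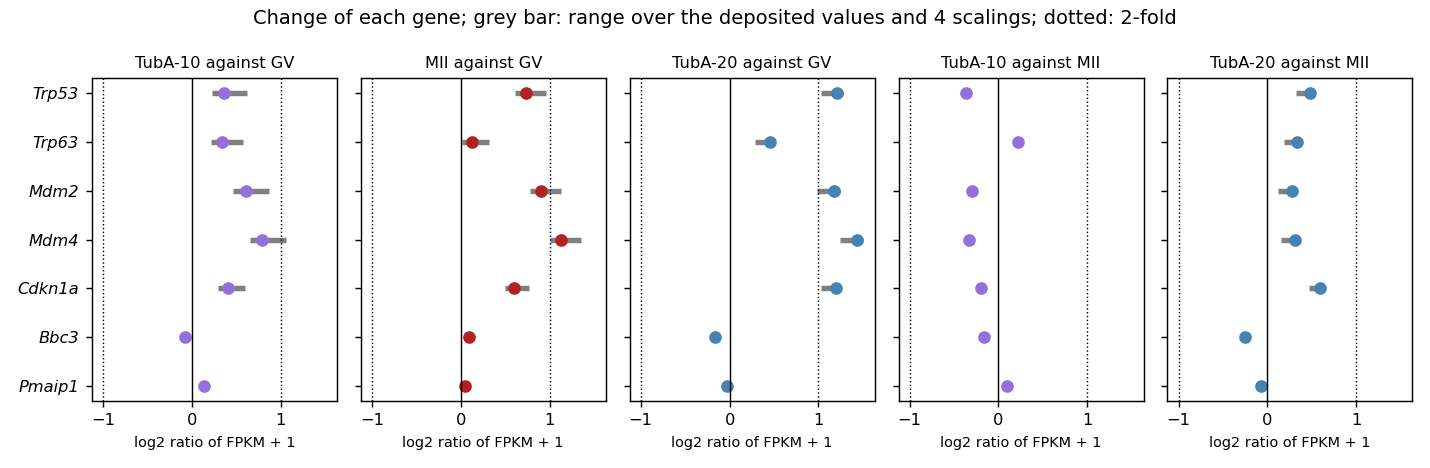
Log2 ratio of FPKM + 1 of each gene (points) in 5 comparisons, with grey bars for the range over the deposited values and 4 scalings and dotted lines at 2-fold. *Trp53*, *Mdm2*, *Mdm4* and *Cdkn1a* lie past 2-fold in TubA-20 against GV, *Mdm4* alone does so in MII against GV, and no gene does in the other panels as deposited.

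In counts, 4 of the 7 genes passed 2-fold upward in TubA-20 against GV (*Trp53*, *Mdm2*, *Mdm4* and *Cdkn1a*), beside 7.61% of all genes. Of the 7778 genes that had 5 FPKM or more in either library, 20.2% did. *Cdkn1a* is in that set through TubA-20 alone (2.39 FPKM in GV and 6.75 in TubA-20). Its positive difference there was fixed, so its place beside the 20.2% carries no weight. The members' median was 1.17 and that of all genes 0. Only *Mdm4* was 2-fold higher in MII than in GV, beside 3.05% of all genes and 8.26% of the 7685 genes that had 5 FPKM or more in either, with a members' median of 0.60. No member was 2-fold higher in TubA-10 than in GV (background 0.742%), in TubA-10 than in MII (0.515%), in TubA-20 than in MII (0.328%) or in TubA-20 than in TubA-10 (0.66%), and the members' medians were 0.37, -0.19, 0.31 and 0.57. None of the 7 was 2-fold lower in any comparison, while 8.34% of all genes were in MII and 11.7% in TubA-20 against GV. Of genes that had 5 FPKM or more in either library, 20.8% and 26.8% were. *Bbc3* and *Pmaip1*, with at most 0.194 and 0.190 FPKM, are not in that set. At these levels they could not pass 2-fold on the FPKM + 1 scale, so their absence from every count was fixed. All comparisons with GV share that library, so they are not separate evidence.

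*Trp53*, *Trp63*, *Mdm2* and *Mdm4* had at least 5 FPKM in every library, and their differences were placed among the 7897 genes that reached this level in a library. *Cdkn1a* reached it in TubA-20 alone and was not placed. In TubA-20 against GV, 3.48% of these genes had a larger positive difference than *Mdm4*, 10.5% than *Trp53*, 12.1% than *Mdm2* and 43.3% than *Trp63*. In MII against GV the shares were 4.03% for *Mdm4*, 12.5% for *Mdm2*, 21.0% for *Trp53* and 50.1% for *Trp63*. *Mdm4* was thus near the top of both distributions, while *Trp63* sat near the middle. *Trp53* stood higher in the dose step, where 3.98% of genes had a larger positive difference from TubA-10 to TubA-20. From MII to TubA-20 its share was 11.5%.

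**Figure D3:**
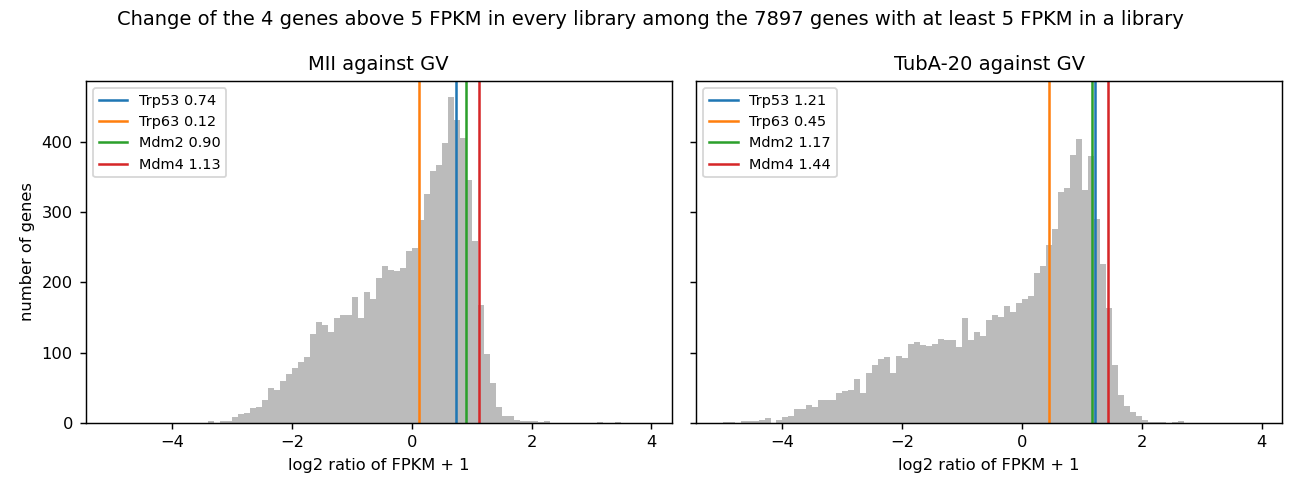
Number of genes (of 7897 with at least 5 FPKM in a library) by log2 ratio of FPKM + 1, in bins of 0.1, for MII and for TubA-20 against GV, with the 4 p53 pathway genes at or above 5 FPKM in every library as vertical lines. *Mdm4* lies in the right edge (1.13 and 1.44), *Trp53* (1.21) and *Mdm2* (1.17) lie together in TubA-20, and *Trp63* (0.12 and 0.45) is near the middle.

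The order of the libraries was the same for *Trp53*, *Mdm2*, *Mdm4* and *Cdkn1a*, from GV through TubA-10 and MII to TubA-20, also under the 4 scalings. Of the 24 possible orders it was held by 2248 of the 7897 genes (28.5%), and under the scalings by 21.1% to 24.5%. *Cdkn1a* is among these genes through TubA-20 alone, which already fixed TubA-20 as its highest library, so its place in the count carries no weight. The reverse order was held by 24.2% as deposited. The order of the 4 members was the commonest as deposited and with equal sums, while the reverse order was the commonest with the median difference set to 0 (26.5%), with equal upper quartiles (24.4%) and with equal *Gapdh* (22.9%). The order of *Trp63*, with TubA-10 above MII, was held by 578 genes (7.32%). The order of the 4 members was therefore shared with many genes outside the pathway, and without replicates the neighbours in it could not be separated by their spread.

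**Figure D4:**
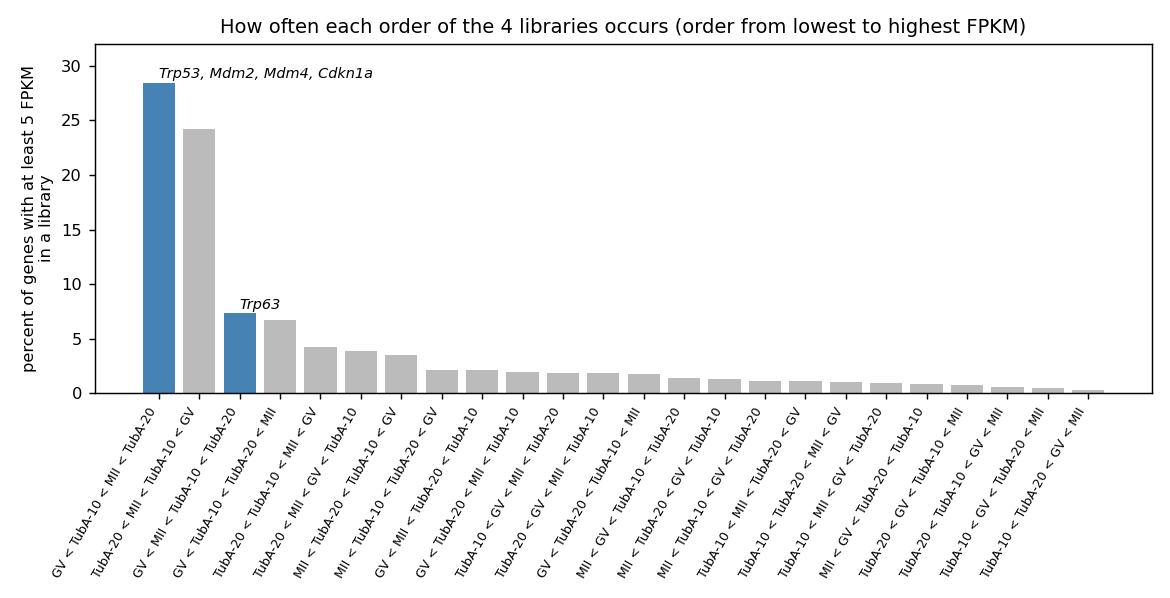
Percent of the 7897 genes with at least 5 FPKM in a library (vertical axis) that show each of the 24 orders of the 4 libraries, from lowest to highest FPKM. The bars in blue hold p53 pathway genes: 28.5% of genes share the order of *Trp53*, *Mdm2*, *Mdm4* and *Cdkn1a*, and 7.32% that of *Trp63*. *Cdkn1a* reached 5 FPKM in TubA-20 alone.

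The genes most like each member were those with the smallest root mean square distance between their log2 differences from GV in the 3 other libraries, among 7896 genes. For *Trp53* these were *Rfpl4*, *Pom121* and *Tomm34* (distances of 0.027 to 0.028), and 113 genes lay within 0.1. For *Trp63* they were *Stt3b*, *Atox1* and *Akirin2*, with 76 genes within 0.1. *Mdm2* was closest to *Cntn1*, *Ube4b* and *Rcn2* and had 247 genes within 0.1. *Mdm4* was closest to *Mbd3l2*, *Bmi1* and *Haus4*, and *Cdkn1a* to *Ikzf4*, *Ppp2r1a* and *Mfsd9*, each with 101 genes within 0.1. The compared genes had at least 5 FPKM in a library, a level that *Cdkn1a* reached in TubA-20 alone. *Ube4b*, which encodes a ubiquitin ligase that acts on p53, was the one neighbour that also stood in the pathway lists.

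The 3′ ends of the mRNAs were inspected because, in oocytes, a cytoplasmic polyadenylation element (CPE) close to the polyadenylation signal can lengthen the poly(A) tail. The letters TTTTAT and TTTTAAT were searched on the sense strand in the last 100 bases of 1 transcript per gene, the principal one where annotated (GENCODE, GRCm38). *Trp53* held 1 CPE 47 bases and *Mdm4* 2 CPEs 51 and 40 bases from the transcript end, beside a polyadenylation signal (AATAAA or ATTAAA) in each. The windows of 30 bases show the CPEs of these 2 genes and, for *Mdm2* and *Cdkn1a*, the signal in capitals.
*Trp53* CPE: ttttttacccctTTTTATatatcaatttcc
*Mdm4* CPEs: actatgtaatgcTTTTAATgcggTTTTATt
*Mdm2* signal: tatttatttgcaAATAAAtggtttattgaa
*Cdkn1a* signal: aagctggtgctcAATAAAtacttctcgatg

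The last 100 bases of *Mdm2*, *Cdkn1a*, *Trp63*, *Bbc3* and *Pmaip1* held a signal and no CPE by these letters, although the full 3′UTR of *Mdm2* held 3, that of *Cdkn1a* 1, that of *Trp63* 8 and that of *Pmaip1* 5. Of 7345 genes with a 3′UTR and at least 5 FPKM in a library, 21.2% held a CPE in this window. Their median log2 difference from GV was 0.36 for TubA-10, 0.51 for MII and 0.72 for TubA-20, while genes without one had medians of 0.12, 0.05 and 0.09. *Trp53* and *Mdm4* exceeded the first medians in MII and TubA-20, and so did *Mdm2* and *Cdkn1a*, which held none there. The part of these elements in the members' differences was not tested.

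The other 84 genes of the pathway were grouped in 8 lists, all in the table. Their counts in TubA-20 against GV stand beside 7.61% of all genes at least 2-fold higher and 11.7% lower, and over the scalings beside 4.48% to 8.72% higher and 11.03% to 12.99% lower. Among genes that had 5 FPKM or more in either library the shares were 20.2% higher and 26.8% lower. With so few genes per list, a share near these says nothing about the list. Of 5 further family members and cofactors, 1 passed 2-fold upward and 1 downward in TubA-20 against GV, with a median of -0.19. *Trp53bp1* (53BP1, a DNA damage mediator that binds p53) had 22.5 FPKM in GV, 29.3 in TubA-10, 41.1 in MII and 52.5 in TubA-20, a log2 difference of 1.19. *Trp73* (the third p53 family factor) was below 5 FPKM throughout, at 4.66 in GV and 1.19 to 1.64 in the cultured libraries.

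Of 11 kinases that act on p53 or MDM2, 3 passed 2-fold upward and 2 downward in TubA-20 against GV (median 0.12), and over the scalings 2 to 4 did so upward. The 7 kinases with 5 FPKM or more in either library had a median of 0.94. *Chek1*, the checkpoint kinase downstream of ATR, had 159 FPKM in GV, 254 in TubA-10, 267 in MII and 377 in TubA-20 (log2 1.24). *Csnk1e*, a casein kinase 1, had 306, 446, 637 and 889 FPKM in the same order (1.53), and was also 2-fold higher in MII (1.05, but down to 0.93 under a scaling). *Hipk2*, a p53 kinase linked to apoptosis, was 1.14 higher and came down to 0.96 under a scaling. *Mapk14*, the p38α kinase, was lower, from 6.40 FPKM in GV to 2.18 in TubA-20 (-1.22), as was *Chek2*, the kinase downstream of ATM, which stayed below 5 FPKM (-1.16). *Dyrk2* was listed at 0 in all 4 libraries.

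Of 11 other ubiquitin ligases and deubiquitinases of p53 or MDM2, 4 passed 2-fold upward in TubA-20 against GV and none downward, with a median of 0.64. All 11 had 5 FPKM or more in either library, a level at which 20.2% of genes passed 2-fold upward. The upward count was 1 to 5 over the scalings, so it rests on how the libraries are scaled. *Rchy1*, a p53 ubiquitin ligase also called PIRH2, had 119 FPKM in GV, 190 in TubA-10, 236 in MII and 332 in TubA-20 (1.48) and stayed past 2-fold under every scaling. *Ube4b* was 1.18, *Cop1*, another p53 ligase, 1.14 and *Usp2*, which deubiquitinates MDM2, 1.10 higher, and under a scaling they came down to 0.99, 0.95 and 0.91. In MII against GV no gene of this list passed 2-fold as deposited, but 0 to 4 did so upward over the scalings. These counts stand beside 3.05% of all genes as deposited and 1.65% to 6.80% over the scalings. The list median in MII was 0.57.

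Of 9 acetyltransferases and deacetylases that act on p53, 2 passed 2-fold upward and 1 downward in TubA-20 against GV, with a median of -0.05. The coactivators *Crebbp* (144 FPKM in GV, 180 in TubA-10, 242 in MII and 371 in TubA-20) and *Ep300* were 1.36 and 1.05 higher, and *Ep300* came down to 0.87 under a scaling. *Kat8*, the MOF acetyltransferase, had 217 FPKM in GV, 107 in TubA-10, 101 in MII and 47.1 in TubA-20. Its TubA-20 level was 2-fold below that of GV (-2.18) and of MII (-1.09), also under the scalings. TubA-10 (-1.01) and MII (-1.09) were just past 2-fold below GV and reached -0.74 and -0.86 under a scaling. *Nat10*, which acetylates RNA and p53, had 15.9 FPKM in GV, 10.9 in TubA-10, 11.8 in MII and 9.97 in TubA-20, differences of less than 2-fold.

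Of the 11 ribosomal and nucleolar genes whose proteins bind MDM2, 6 were 2-fold lower and 1 higher in TubA-20 against GV (median -1.21), beside 26.8% lower and 20.2% higher of genes that had 5 FPKM or more in either library, a level that 10 of the 11 reached. In MII against GV 5 were lower and none higher (median -0.61). This stands beside 8.34% lower of all genes and 20.8% lower of genes that had 5 FPKM or more in either library, a level that 10 of the 11 reached here too. Over the scalings the lower count was 6 to 7 in TubA-20 and 5 in MII, and the higher count in MII was 0 to 1. *Rpl26* had 833 FPKM in GV, 134 in TubA-10, 130 in MII and 76.4 in TubA-20 (-3.43 in TubA-20). *Rps7* (-3.20), *Rpl3* (-3.16), *Rpl23* (-2.41), *Rps14* (-1.56) and *Rpl5* (-1.21) were the other 5. All 6 encode cytoplasmic ribosomal proteins. The study reports lower levels in MII than in GV for most mRNAs of such proteins, and a greater reduction with TubA. The lower values are therefore not particular to genes whose proteins bind MDM2. *Rpl5* had 550 FPKM in GV, 590 in TubA-10, 360 in MII and 237 in TubA-20, so that it was 2-fold lower in TubA-20 than in TubA-10 (-1.31). *Rpl11*, its partner in binding MDM2, was less different, with 562 FPKM in GV, 550 in TubA-10, 436 in MII and 317 in TubA-20 (-0.83). *Ncl*, which encodes nucleolin, was the one gene 2-fold higher (1.25). *Npm1*, which encodes nucleophosmin, was 0.86 higher, with 1204 FPKM in GV, 1711 in TubA-10, 1560 in MII and 2179 in TubA-20. *Cdkn2a*, which encodes the MDM2 inhibitor p19ARF, was listed at 0 in GV and MII, at 0.263 FPKM in TubA-10 and at 0.502 in TubA-20, levels too low to compare.

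**Figure D5:**
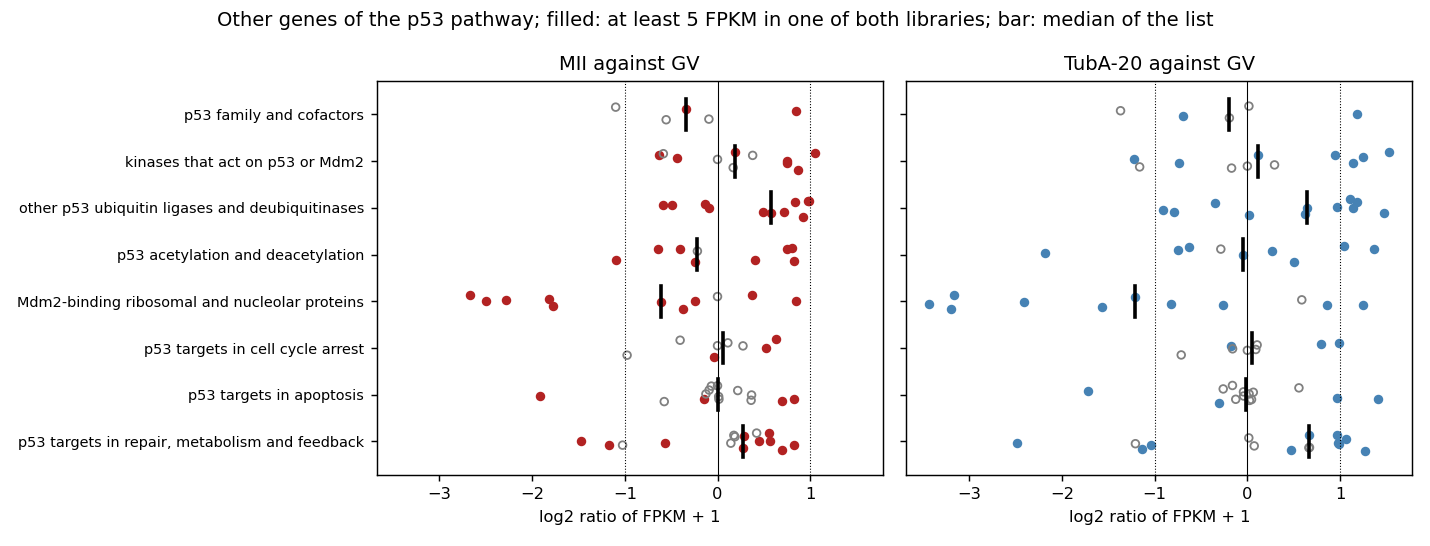
Log2 ratio of FPKM + 1 of each gene of the 8 pathway lists (points) in MII and in TubA-20 against GV, with the list median as a black bar and dotted lines at 2-fold, where filled points have 5 FPKM or more in either library. The ubiquitin ligase list has its median at 0.57 and 0.64, and the MDM2-binding ribosomal list at -0.61 and -1.21.

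Beyond the members, 37 other known p53 target genes were followed in 3 lists. In TubA-20 against GV, 3 were 2-fold higher and 5 lower, with a median of 0.04. In MII against GV none was higher and 4 were lower as deposited, beside 3.05% higher and 8.34% lower of all genes. Over the scalings 0 to 2 were higher and 2 to 5 lower in MII. Both counts in TubA-20 are near the shares over all genes (7.61% higher and 11.7% lower), and over the scalings 2 to 8 targets were higher and 4 to 5 lower. Of the 37, 10 stayed below 1 FPKM in all 4 libraries. The 17 targets with 5 FPKM or more in either library had a median of 0.80 in TubA-20 against GV, with 11 higher and 6 lower. That median is the value of *Gadd45a*, which had 3.66 FPKM in GV and 7.11 in TubA-20. It met the minimum through TubA-20 and not GV, so its positive difference was fixed. The median of the 7897 genes with at least 5 FPKM in a library was 0.22. That set was chosen over all 4 libraries, so the medians are of unlike sets and no conclusion is drawn from them. Of the 8 cell cycle arrest targets none passed 2-fold in TubA-20 against GV. *Btg2*, an antiproliferative factor, was closest (7.22 FPKM in GV and 15.3 in TubA-20, log2 0.99).

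Of the 14 apoptosis targets, *Siva1* was 2-fold higher in TubA-20 (528 FPKM in GV, 821 in TubA-10, 856 in MII and 1403 in TubA-20, log2 1.41). *Bax*, the pore-forming Bcl2 family protein, was lower in all cultured libraries, with 68.7 FPKM in GV, 24.01 in TubA-10, 17.5 in MII and 20.2 in TubA-20 (-1.72). Of the 15 targets in repair, metabolism and feedback, *Ddit4* (an inhibitor of mTORC1, 1.27) and *Rps27l* (a ribosomal protein, 1.06) were 2-fold higher in TubA-20, and *Rps27l* came down to 0.87 under a scaling. *Sco2*, a cytochrome c oxidase assembly factor, had 20.9 FPKM in GV, 8.42 in TubA-10, 6.87 in MII and 2.92 in TubA-20 (-2.48 in TubA-20). *Fdxr* (-1.21), *Triap1* (-1.14) and *Tigar* (-1.04, but -0.97 under a scaling) were also 2-fold lower in TubA-20. As deposited, *Sco2* (-1.48), *Triap1* (-1.17) and *Fdxr* (-1.02) were 2-fold lower in MII too, and *Sco2* in TubA-10 (-1.22). Over the scalings 1 to 3 genes of this list were 2-fold lower in MII and 0 to 1 in TubA-10. *Triap1*, an apoptosis inhibitor, was the one target 2-fold higher in TubA-10 than in MII (1.03, but 0.97 under a scaling), with 77.6 FPKM in GV, 70.1 in TubA-10, 33.9 in MII and 34.7 in TubA-20.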

How the data were processed

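Poly(A)-selected, strand-specific libraries from pools of 100 oocytes were sequenced from both ends, and the submitters' processing notes name STAR 2.5.0, Cufflinks and Cuffdiff 2.2.1. The labels name TRIzol for RNA extraction and the methods of the study the PicoPure kit. The authors deposited FPKM values, computed with cufflinks on mm10, for 21959 entries, of which 165 had no symbol. Entries with the same symbol were summed. Read counts are not used here, so depth is not known exactly, and fragment numbers were roughly estimated from the smallest values above 0.

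Log2 ratios of FPKM + 1 (pseudocount 1) were computed with no filter for 6 comparisons, and 2-fold was the threshold. Each condition was 1 library, so there was no test. The alternatives were pseudocounts of 0.1 and 0.01, minima of 1 and 5 FPKM, 4 scalings (median log2 difference of 0, equal sums, equal upper quartiles, equal *Gapdh*), a 1.5-fold threshold, and the highest entry per symbol. Counts of list genes under the scalings were added after seeing the data. The members and lists were chosen with earlier results of these data known. The text names list genes past 2-fold with at least 5 FPKM, *Nat10*, *Rpl3*, *Rpl5*, *Rpl11* and *Rpl23*, and the 3 nearest neighbours of each member. *Trp73*, *Chek2*, *Fdxr*, *Dyrk2*, *Cdkn2a*, *Npm1*, *Btg2* and marker genes were named outside this rule after their values were seen. Promoters came from a RefSeq table and 3′UTRs from GENCODE transcripts, both on GRCm38. The scripts were tested on simulated data. Python 3.11.15 with numpy 2.4.6, pandas 2.3.3 and matplotlib 3.10.9 was used.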

Additional observations from a re-analysis of the deposited data

Results flagged for a closer look

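*Trp53*, *Mdm2*, *Mdm4* and *Cdkn1a* lay on opposite sides of MII at the lower and the higher TubA dose, below MII in TubA-10 and above it in TubA-20 as deposited and under each of the 4 scalings. The log2 difference of TubA-20 from TubA-10 was 0.84 for *Trp53*, 0.79 for *Cdkn1a*, 0.64 for *Mdm4* and 0.57 for *Mdm2*. As deposited, 28.5% of the 7897 genes with at least 5 FPKM in a library held the same order of GV, TubA-10, MII and TubA-20. The pattern was therefore common beyond these genes. Both doses are set against the same MII library, each dose is 1 library, and the difference between doses was not tested. *Trp63* was above MII at both doses (0.22 and 0.33).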

How the results depend on the processing

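The 7 genes gave 393 values of single differences under the alternatives. Of these, 371 stayed in direction and on the same side of the threshold, 20 newly passed it, 1 no longer passed it (*Mdm2* in TubA-20 against GV, 0.99 with the median difference set to 0) and 1 turned sign (*Trp63* in TubA-20 against TubA-10, -0.06 with equal *Gapdh*). Many of the 371 could not have differed. The minima of 1 and 5 FPKM and the highest entry per symbol leave a member's ratio unchanged, and the 1.5-fold threshold can only add passes. The 371 is therefore no measure of robustness. The counts of members past 2-fold take differences in either direction. In TubA-20 against GV the count stayed within 1.5 times of 4 under every alternative, but its members differed. It lost *Mdm2* with the median difference set to 0. With pseudocounts of 0.1 and 0.01 it gained *Bbc3*, downward from 0.119 FPKM in GV to 0 in TubA-20. In MII against GV the count of 1 became 2 with equal sums and 2 with equal *Gapdh* (*Mdm2* added) and 4 at 1.5-fold. In TubA-10 against GV the count of 0 became 1 with equal *Gapdh* (*Mdm4*), 1 with a pseudocount of 0.01 (*Pmaip1*) and 2 at 1.5-fold (*Mdm2* and *Mdm4*). In TubA-10 against MII it became 1 with a pseudocount of 0.01 (*Bbc3*). In TubA-20 against MII it became 1 with a pseudocount of 0.1 and 1 with 0.01 (*Bbc3*) and 1 at 1.5-fold (*Cdkn1a*). In TubA-20 against TubA-10 it became 2 with a pseudocount of 0.01 (*Bbc3* and *Pmaip1*) and 3 at 1.5-fold (*Trp53*, *Mdm4* and *Cdkn1a*). The calls of *Bbc3* and *Pmaip1* rest on a few fragments. The highest entry per symbol left every count as it was, which was fixed because each member has 1 entry. No paired analysis was possible because each condition had 1 library, and none could be left out.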
